A study of Mus musculus with 9 samples.

Results

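The genes described here encode focal adhesion scaffold proteins, the intracellular proteins that join integrins to the actin cytoskeleton. They were taken by symbol from a list of 10 genes: Actn1, Pxn, Tns1, Vcl, Tln1, Zyx, Ilk, Ptk2, Flna and Parva. Of these, 9 were measured among 17097 genes in all, through 17 of 28898 probe sets that carried a single gene symbol, and Ptk2 was not analysed here. A gene with several probe sets is given by the brightest of them on average, and the others are set beside it.

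Basal epidermal cells came from tail skin of CD1 mice 4 days after a 3 mm punch wound, and 9 arrays were made, 3 per group. Leading edge (LE) cells were cut with a 4 mm punch around the wound and sorted as positive for α5 integrin. Proliferative hub cells were labelled as negative for α5 integrin, so region and this gate cannot be told apart. The methods cut the hub with a 6 mm punch. For the sort on α5 integrin, however, the paper names only the 4 mm punch and control skin. The punch of these hub cells is therefore uncertain. Control cells came from skin distant from the wound, and no α5 integrin gate is named for them. The sort of every group took cells with α6 integrin, a basal cell protein, and without CD34, a protein of bulge cells in the hair follicle. Each array held RNA of 300 cells, amplified before labelling. The methods state a pool of 5 CD1 mice for samples in duplicate. Strain and pool size are carried over from there to these arrays. Labels and methods differ on whether the 3 arrays of a group are biological or technical repeats, so the p-values describe only the spread among the arrays and may miss that among mice. No age is stated for these pools. The methods describe CD1 mice wounded for another experiment of the study as adults.

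Focal adhesions form where integrins bind the matrix under a cell. Talin binds the integrin tail and actin, vinculin reinforces that link, and α-actinin and filamin cross-link the actin filaments that pull on it. Paxillin, zyxin and tensin are docking proteins that join the site at different stages of its growth, and integrin-linked kinase works with parvin and a PINCH protein as a single complex. Keratinocytes that crawl over a wound bed build and dissolve such sites as they move.

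Basal keratinocyte markers were bright in every group, with a mean log2 signal of 12.77 to 12.82 at the LE, 12.62 to 12.64 in the hub and 12.63 to 12.70 in control skin over 6 genes. Itga6, on which every group was sorted, is among the 6. Of these, 2 (Itga6 and Itgb4) were called higher at the LE than in the hub and in control skin, and 0 between hub and control. The sort gene Itga5 had a log2 signal of 9.11 ± 0.05 at the LE, 6.92 ± 0.51 among hub arrays and 6.40 ± 0.14 among control arrays (SD, n = 3 each), which checks the labels and is no finding. The 23 probe sets made to read nonspecific background ranged from 3.66 to 8.61, with a median of 4.66. On all 9 arrays 8 of the 9 genes read above that range, and Tns1 did so on 7. In RNA from many cells, fewer cells of a type and less RNA per cell cannot be told apart.

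Markers of other cells rich in these proteins were read on the same arrays. Endothelial markers averaged 6.19 to 7.57 at the LE, 6.35 to 6.76 in the hub and 5.88 to 6.17 in control skin (6 genes), and 0 of 6 were called in any comparison. The high end was LE replicate 1, where Cdh5 read 9.73. The platelet gene Pf4 read 7.92 on that array, and 0 of 4 platelet markers were called in any comparison. The platelet markers Gp9 and Gp1bb were lower on LE replicate 1 (6.54 and 5.52) than on the other LE arrays. The last of the 4, Itga2b, read 8.29 there, between the other LE arrays. Cdh5 also read 8.39 and 8.42 on hub replicates 2 and 3. Myeloid markers averaged 5.61 to 6.75 at the LE, 5.62 to 5.77 in the hub and 5.61 to 5.68 in control skin (6 genes), LE replicate 1 was again the highest, and 1 of 6, Lyz2, was called higher at the LE than in control skin. Smooth muscle and pericyte markers averaged 6.44 to 6.62 at the LE, 6.46 to 6.55 in the hub and 6.33 to 6.48 in control skin (5 genes), and 1 of 5 was called higher at the LE than in control skin. Fibroblast markers averaged 5.77 to 5.94 at the LE, 5.83 to 5.91 in the hub and 6.00 to 6.08 in control skin (6 genes), and 5 of 6 lay inside the background range on all arrays. Of the 6, 1 was called, Dcn, which was lower at the LE and in the hub than in control skin, and Col1a1 read 8.12 on LE replicate 1. The part of these markers in the results was not tested. Without LE replicate 1, the counts of scaffold genes called against hub and against control were as with it, at 7 higher and 1 lower in each.

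Promoter motifs were searched on both strands of the RefSeq windows of 300 bases (assembly GRCm38.p6, 250 before to 50 after a transcript start), which matched 7 of the genes with 8 windows. The motifs were the CArG box bound by serum response factor, the AP-1 site TGANTCA and the TEAD site GGAATG, each a site of factors known to act on genes of the cytoskeleton and of wounds. The CArG box was found in 1 of 8 windows, that of Vcl, against 1.63% of all 32851 windows. The AP-1 site was found in 1 window, that of Zyx, against 7.81% of all windows. The TEAD site was found in 2 windows, those of Vcl and Flna, against 14.7% of all windows. No matched site overlapped another. A match describes the letters only. The windows below, 5′ to 3′ with matches in capitals, are shown because they hold those matches or belong to the genes with the largest rise and the largest fall, Actn1 and Tns1.
Vcl, chr14:20929148-20929447, plus strand, CArG box first and TEAD site second: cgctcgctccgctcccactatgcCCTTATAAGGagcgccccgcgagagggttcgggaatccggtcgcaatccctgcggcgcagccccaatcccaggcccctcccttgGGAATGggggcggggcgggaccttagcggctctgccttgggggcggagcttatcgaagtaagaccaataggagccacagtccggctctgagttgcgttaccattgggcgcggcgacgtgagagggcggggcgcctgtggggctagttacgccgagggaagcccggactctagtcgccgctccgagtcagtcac
Zyx, chr6:42349578-42349877, plus strand, AP-1 site: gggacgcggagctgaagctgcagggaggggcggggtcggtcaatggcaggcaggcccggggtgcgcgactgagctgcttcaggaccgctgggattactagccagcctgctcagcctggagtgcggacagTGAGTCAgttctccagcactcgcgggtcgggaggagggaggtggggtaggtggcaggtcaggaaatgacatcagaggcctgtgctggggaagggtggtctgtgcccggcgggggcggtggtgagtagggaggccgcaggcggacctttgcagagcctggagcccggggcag
Flna, chrX:74246485-74246784, minus strand, TEAD site as its reverse complement: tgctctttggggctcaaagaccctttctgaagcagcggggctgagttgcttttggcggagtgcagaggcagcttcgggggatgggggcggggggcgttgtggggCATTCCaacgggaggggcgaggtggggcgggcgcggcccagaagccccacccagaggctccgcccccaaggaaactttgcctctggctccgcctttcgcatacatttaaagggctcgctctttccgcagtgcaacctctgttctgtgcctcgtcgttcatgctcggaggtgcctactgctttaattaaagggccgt
Actn1, chr12:80260314-80260613, minus strand, no match: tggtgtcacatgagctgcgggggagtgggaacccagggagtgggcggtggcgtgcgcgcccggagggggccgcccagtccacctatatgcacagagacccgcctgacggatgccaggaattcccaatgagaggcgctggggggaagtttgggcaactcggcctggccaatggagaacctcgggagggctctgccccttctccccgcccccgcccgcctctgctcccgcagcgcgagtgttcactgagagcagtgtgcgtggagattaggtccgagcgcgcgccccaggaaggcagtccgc
Tns1, chr1:74124499-74124798, minus strand, no match: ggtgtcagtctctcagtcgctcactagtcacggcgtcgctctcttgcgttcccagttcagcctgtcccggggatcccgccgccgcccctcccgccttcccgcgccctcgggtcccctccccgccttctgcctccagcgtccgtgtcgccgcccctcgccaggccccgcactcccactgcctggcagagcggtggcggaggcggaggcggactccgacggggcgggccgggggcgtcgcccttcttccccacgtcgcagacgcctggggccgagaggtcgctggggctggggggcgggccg

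The LE was set against the hub, which the paper describes as a migrating wound front and a zone of proliferation around it. For day 4 and later the paper proposes that movement of the LE is passive. Cells were not sorted on motion or division. Of the 9 scaffold genes, 7 were higher at the LE, 1 was lower and 1 was not called (limma, Benjamini-Hochberg adjusted p under 0.05 over all genes), where 10.6% of all genes were called, 5.39% higher and 5.23% lower. The median difference of the 9 genes was 0.57 on the log2 scale, against -0.01 over all genes. For 7 genes every LE array read above every hub array and for Tns1 every LE array read below, where 30.0% of all genes had groups that did not overlap, 14.5% with the LE higher and 15.4% with it lower. The 7 rises lay between 0.53 and 0.91, which is 1.44-fold to 1.88-fold. Against control skin, 7 genes were again higher at the LE and 1 lower, where 22.8% of all genes were called, 11.9% higher and 10.8% lower. The same 8 genes had LE and control arrays that did not overlap, where 36.2% of all genes had none, 20.0% with the LE higher and 16.2% with it lower. The hub differed from control skin in 3 of the 9 genes, 1 higher and 2 lower, where 7.28% of all genes were called, 4.16% higher and 3.12% lower. Hub and control arrays did not overlap for 7 genes, 4 higher and 3 lower in the hub, where 23.8% of all genes had none, 14.4% higher and 9.41% lower. By the size rule of the methods, read as a change past 2-fold between every same-numbered pair of arrays, 1 scaffold gene passed for LE against hub (1.04% of all genes), 2 for LE against control (3.01%) and 1 for hub against control (0.521%). These were Tns1, then Actn1 and Tns1, then Actn1. The comparisons share arrays, so their counts are not independent of each other.

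**Figure D1:**
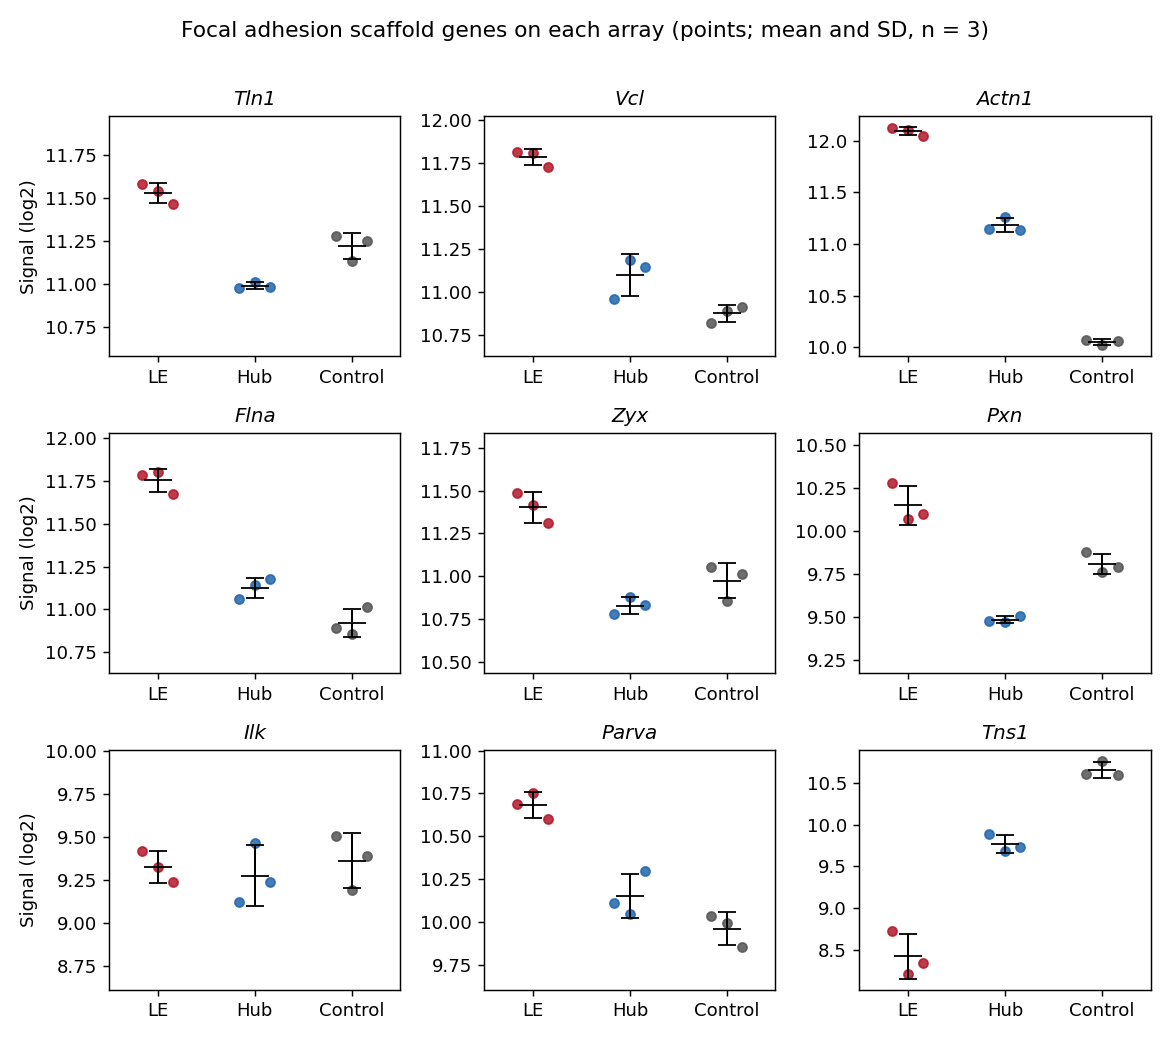
Log2 signal of the 9 measured scaffold genes on each array (y axis; points), with group mean and SD (bars, n = 3), for LE, proliferative hub (Hub) and control. The LE arrays stand above both other groups for 7 genes and below them for Tns1, and the 3 groups overlap for Ilk.

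The actin cross-linker Actn1 (α-actinin 1) had the largest rise. It read 12.12, 12.11 and 12.05 on the 3 LE arrays, 11.15, 11.26 and 11.14 on the hub arrays and 10.07, 10.02 and 10.06 on the control arrays. The 3 groups did not overlap and formed steps, with the LE highest and control lowest. Actn1 was higher at the LE than in the hub by 0.91 ± 0.07 (SE, 1.88-fold, limma adjusted p = 4.23e-05) and higher in the hub than in control skin by 1.13 ± 0.07 (2.19-fold, adjusted p = 2.02e-05). The whole step between LE and control was 2.04 ± 0.07, or 4.12-fold (adjusted p = 1.9e-07). Its main probe set carries the suffix _s_at, given to sets that can bind related transcripts. Both other Actn1 probe sets lack that suffix and rose by 0.96 ± 0.09 and 1.08 ± 0.13 at the LE against hub.

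Flna, which encodes filamin A, a protein that links actin filaments into a net and binds integrin tails, read 11.78, 11.80 and 11.67 at the LE, 11.06, 11.14 and 11.18 in the hub and 10.89, 10.86 and 11.01 in control skin. All LE arrays stood clear of the rest, while hub and control lay close together without overlap. The LE was higher than the hub by 0.63 ± 0.07 (1.54-fold, limma adjusted p = 6.51e-04) and higher than control by 0.83 ± 0.07 (adjusted p = 3.63e-05). The hub differed from control by 0.21 ± 0.07, which did not pass (adjusted p = 0.141).

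Tln1 and Vcl rose as well. Tln1 (talin 1), which switches integrins to their active form, read 11.58, 11.54 and 11.46 at the LE, 10.97, 11.01 and 10.98 in the hub and 11.28, 11.13 and 11.25 in control skin. Here the hub was the lowest group and control lay between, again without overlap. Tln1 was higher at the LE by 0.54 ± 0.07 against hub (limma adjusted p = 9.89e-04) and by 0.31 ± 0.07 against control (adjusted p = 0.00922). The hub differed from control by -0.23 ± 0.07, which missed the threshold (adjusted p = 0.0752) and passed it after repeated quantile normalization (adjusted p = 0.0476) or with a mean-variance trend (adjusted p = 0.018).

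Vcl encodes vinculin, which is recruited to talin under tension. It read 11.82, 11.81 and 11.73 at the LE, 10.96, 11.19 and 11.14 in the hub and 10.82, 10.89 and 10.91 in control skin. The LE arrays were tightly grouped above the rest, and the hub lay just above control. Vcl was higher at the LE by 0.69 ± 0.08 against hub (1.61-fold, limma adjusted p = 5.6e-04) and by 0.91 ± 0.08 against control (1.88-fold, adjusted p = 3.16e-05). Hub and control differed by 0.22 ± 0.08, which did not pass (adjusted p = 0.138).

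Among the docking proteins, Pxn encodes paxillin, an early component of new adhesions. It read 10.28, 10.07 and 10.10 at the LE, 9.47, 9.47 and 9.51 in the hub and 9.88, 9.76 and 9.79 in control skin. The hub was lowest on every array, and control stood between the wound regions. Pxn was higher at the LE than in the hub by 0.67 ± 0.08 (limma adjusted p = 5.6e-04) and than in control by 0.34 ± 0.08 (adjusted p = 0.00928). Hub cells had less Pxn than control cells, by -0.33 ± 0.08 (adjusted p = 0.0311). That call was lost on removal of any of the 3 hub arrays, control replicate 1 or control replicate 3 (adjusted p from 0.0651 to 0.0956), and with the mean of both probe sets (adjusted p = 0.1).

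Zyx encodes zyxin, which gathers at mature adhesions and stress fibres under load. It read 11.49, 11.42 and 11.31 at the LE, 10.78, 10.88 and 10.83 in the hub and 11.05, 10.86 and 11.01 in control skin. Only the LE stood apart, and hub and control overlapped. The LE was higher by 0.57 ± 0.08 against hub (limma adjusted p = 0.00161) and by 0.43 ± 0.08 against control (adjusted p = 0.00344), while hub and control differed by -0.15 ± 0.08 (adjusted p = 0.368).

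Tns1 encodes tensin 1, which binds integrin tails and actin and is found in elongated fibrillar adhesions. It ran against the other scaffold genes, with 8.72, 8.20 and 8.33 at the LE, 9.89, 9.69 and 9.73 in the hub and 10.61, 10.77 and 10.59 in control skin. The order was the reverse of that of Actn1, and no array of one group reached another group. Tns1 fell by 1.35 ± 0.13 at the LE against hub (2.54-fold, limma adjusted p = 2.2e-04) and by 2.24 ± 0.13 against control (4.72-fold, adjusted p = 2.94e-06). Hub cells also had less Tns1 than control, by -0.89 ± 0.13 (adjusted p = 0.00352). Readings of 8.20 and 8.33 lie inside the background range, where array signals are compressed. Among the 6 fibroblast markers, Lum and Pdgfra had group means in the order of Tns1, and neither was called. Col1a1 had the reverse order (7.36 at the LE, 6.77 in the hub and 6.71 in control skin, not called). Col1a2 and Col3a1 had neither order. The fibroblast marker Dcn had the same order of group means as Tns1. It read 6.60, 6.90 and 7.50 at the LE, 7.64, 7.36 and 7.66 in the hub and 8.84, 8.54 and 8.56 in control skin. Dcn was called in LE against control (-1.65 ± 0.20, adjusted p = 3.04e-04) and in hub against control (-1.09 ± 0.20, adjusted p = 0.0115) and not in LE against hub (-0.56 ± 0.20, adjusted p = 0.126), and its part in the fall of Tns1 was not tested.

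Ilk and Parva, whose products share a complex, did not move alike in RNA, and the complex itself was not measured. Ilk, the kinase-like scaffold of the complex, read 9.42, 9.33 and 9.24 at the LE, 9.12, 9.47 and 9.24 in the hub and 9.51, 9.19 and 9.39 in control skin. The 3 groups overlapped fully. The difference between LE and hub was 0.05 with a 95% confidence interval of -0.20 to 0.30 (limma adjusted p = 0.863), and that between LE and control was -0.03 with an interval of -0.29 to 0.22 (adjusted p = 0.873).

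Parva (α-parvin), the actin-binding partner of Ilk, read 10.69, 10.76 and 10.60 at the LE, 10.11, 10.05 and 10.30 in the hub and 10.04, 9.99 and 9.85 in control skin. The LE arrays stood clear of the rest. Parva rose by 0.53 ± 0.09 against hub (1.44-fold, limma adjusted p = 0.00441) and by 0.72 ± 0.09 against control (1.65-fold, adjusted p = 3.02e-04). Hub and control differed by 0.19 ± 0.09 (adjusted p = 0.273). The third partner is a PINCH protein. Its gene Lims1 read 10.38, 10.23 and 10.24 at the LE, 9.88, 9.86 and 9.91 in the hub and 9.88, 9.89 and 9.94 in control skin. Lims1 was higher at the LE by 0.40 ± 0.07 against hub (adjusted p = 0.0045) and by 0.38 ± 0.07 against control (adjusted p = 0.00266). Its other, dimmer probe sets differed by 0.28, 0.24 and 0.28 against hub. None of them was called there (limma over all probe sets, adjusted p = 0.277, 0.271 and 0.194). Against control these sets differed by 0.70, 0.32 and 0.12, and only the first was called (adjusted p = 0.00484, 0.0799 and 0.542). Rsu1, which binds PINCH, rose by 0.44 against hub (adjusted p = 0.00446).

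**Figure D2:**
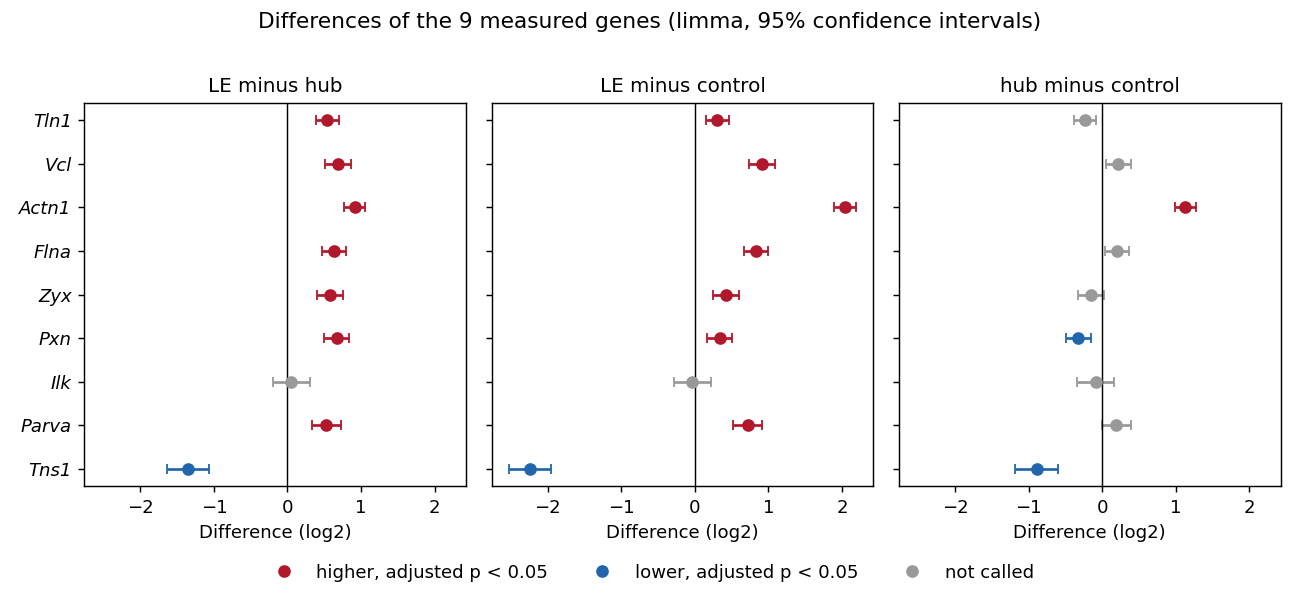
Log2 differences of the 9 genes between LE and hub, LE and control, and hub and control (x axis), with 95% confidence intervals from limma, not adjusted over genes. Red marks a rise and blue a fall at an adjusted p under 0.05, and Actn1 and Tns1 changed in all 3 comparisons, in opposite directions.

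Read side by side, the hub values of the measured scaffold genes other than Ilk fell into 3 kinds. Ilk was called in no comparison. Actn1 and Tns1 changed between all pairs of groups, with the hub between LE and control. Vcl, Flna and Parva had hub means above control by 0.19 to 0.22, none of which passed the test. Tln1, Zyx and Pxn had hub means below control by -0.15 to -0.33, of which Pxn alone passed. These kinds are a description with no test between them. The spread within groups was small for most of the genes. It was 0.05 for Actn1 (log2, root of the mean variance of the 3 groups), against a median of 0.12 over all genes, and exceeded that median for Ilk (0.15) and Tns1 (0.18).

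The other 8 probe sets, from 6 of the genes, ran in the same direction as the main one in all 3 comparisons. Against hub, 6 of these 8 were higher at the LE, 1 was lower and 1 was not called (limma over all probe sets), where 9.54% of all probe sets were called, 5.00% higher and 4.54% lower. The one not called was the third Tns1 set (-0.77 ± 0.21, adjusted p = 0.0522). It read 6.99, 7.12 and 6.92 at the LE and 8.25, 7.76 and 7.34 in the hub, all inside the background range. Against control, 3 were higher at the LE, 2 were lower and 3 were not called, where 21.7% of all probe sets were called, 10.9% higher and 10.8% lower. The 3 were the second sets of Pxn (0.28 ± 0.11, adjusted p = 0.103), Tln1 (0.45 ± 0.17, adjusted p = 0.097) and Zyx (0.31 ± 0.12, adjusted p = 0.115). Between hub and control, 2 were higher, 1 was lower and 5 were not called, where 6.41% of all probe sets were called, 3.30% higher and 3.10% lower. Probe sets of a gene share its RNA and are no replicates.

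**Figure D3:**
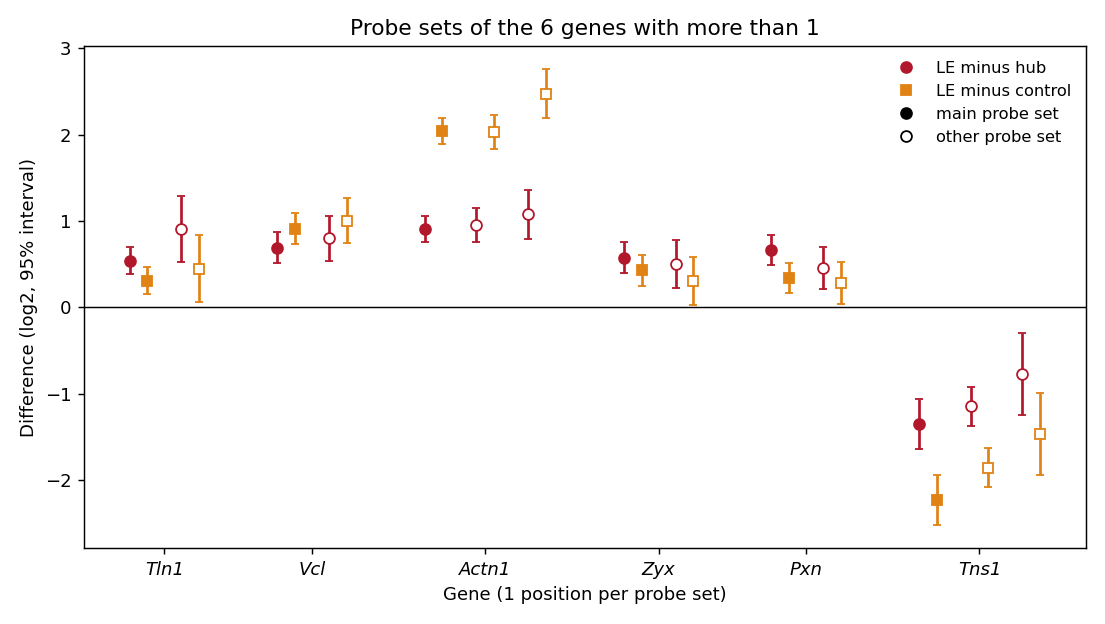
Log2 difference (y axis, 95% confidence intervals) for each probe set of the 6 genes that had more than 1, with LE minus hub as red circles and LE minus control as orange squares. Filled symbols are main probe sets and open ones the others, and all sets of a gene lie on the same side of 0.

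A list of paralogs of the scaffold genes, with the PINCH genes Lims1 and Lims2 as partners of Ilk, was set beside them. Of 12 measured, 2 were higher at the LE than in the hub and 10 were not called, with differences of -0.14 to 0.09. That is 16.7% of the list, where 10.6% of all genes were called. The paralogs Actn2, Actn3 and Parvg, which that list leaves out, were not called either (-0.11, -0.03 and -0.05). Ptk2b encodes Pyk2, a tyrosine kinase related to focal adhesion kinase, and read 9.59, 9.43 and 9.44 at the LE, 8.74, 8.37 and 8.71 in the hub and 8.29, 8.32 and 8.40 in control skin. Every LE array lay above the others. It rose by 0.88 ± 0.10 against hub (1.84-fold, limma adjusted p = 7.1e-04) and by 1.15 ± 0.10 against control (adjusted p = 4.56e-05). Its control arrays and hub replicate 2 lay inside the background range. The other rise was in Lims1, given above, which is no paralog of a scaffold gene.

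The tensins did not move alike. Tns3, whose product is a related tensin, read 8.75, 9.09 and 8.98 at the LE, 9.42, 9.07 and 8.74 in the hub and 9.92, 9.82 and 9.87 in control skin. The wound regions overlapped, and both lay below control. Tns3 fell by 0.93 ± 0.16 at the LE against control (limma adjusted p = 0.00207) and by 0.79 ± 0.16 in hub cells against control cells (adjusted p = 0.0159). The hub call was lost without hub replicate 2 (adjusted p = 0.0528) and with the mean of its probe sets (adjusted p = 0.0608). The second Tns3 probe set, inside the background range, was not called (limma over all probe sets). It differed by -0.14 ± 0.12 for LE against control (adjusted p = 0.461) and by -0.15 ± 0.12 for hub against control (adjusted p = 0.571). LE and hub differed by -0.14 ± 0.16 (adjusted p = 0.71). Tns4, the short tensin that lacks the actin-binding part, differed between LE and hub by -0.01 ± 0.11 (adjusted p = 0.976) and Tns2 by -0.02 ± 0.09 (adjusted p = 0.942).

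The wider adhesion machinery was read from a list of 55 further genes, the paralogs and PINCH genes included, of which 47 were measured. At the LE 15 were higher than in the hub, 2 were lower and 30 were not called, which is 36.2% of the list against the 10.6% of all genes given above. The median difference of the list was 0.08. Against control the counts were 15 higher and 4 lower, where 22.8% of all genes were called, and between hub and control 5 higher and 3 lower, where 7.28% of all genes were called. The largest rises were in the LIM domain genes Fblim1, Pdlim7 and Tes. The LIM domain genes of the list did not move alike against hub. Lims1, Lasp1, Pdlim1 and Pdlim5 were also higher at the LE, and Limd1 was lower. Lims2, Lpxn, Lpp, Trip6, Ajuba and Csrp1 were not called. Fblim1 (migfilin, which binds filamin) read 10.09, 9.93 and 9.80 at the LE, 8.43, 8.29 and 8.49 in the hub and 6.63, 6.97 and 7.67 in control skin, and rose by 1.54 ± 0.22 against hub (2.91-fold, limma adjusted p = 0.00195). Hub and control arrays of Fblim1 lay inside the background range, as did the control arrays of Pdlim7 and Tes. Pdlim7 (enigma, an adaptor on actin bundles) read 10.63, 10.54 and 10.54 at the LE, 8.94, 9.18 and 9.24 in the hub and 8.18, 8.02 and 7.78 in control skin. Its rise was 1.45 ± 0.11 against hub (adjusted p = 6.75e-05) and 2.58 ± 0.11 against control.

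Tes (testin), a partner of zyxin, read 10.14, 10.25 and 10.07 at the LE, 8.57, 8.76 and 8.89 in the hub and 8.08, 8.28 and 8.01 in control skin. It rose by 1.41 ± 0.10 against hub and by 2.03 ± 0.10 against control (limma adjusted p = 5.1e-05 and 1.59e-06). These 3 genes stepped up through hub and LE as Actn1 did, with hub above control by 1.31 for Fblim1, 1.13 for Pdlim7 and 0.62 for Tes (adjusted p = 0.00696, 6.14e-04 and 0.0076). The hub call of Tes was lost with the mean of its probe sets (adjusted p = 0.0643). Evl, an actin elongation factor that zyxin recruits, rose by 0.75 ± 0.13 against hub (adjusted p = 0.00548), with every array inside the background range.

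The kindlins work beside talin on the integrin tail. Fermt2 (kindlin 2) rose by 0.54 ± 0.10 at the LE against hub, and read 6.91, 6.62 and 6.97 at the LE and 6.30, 6.35 and 6.21 in the hub, which is dim (limma adjusted p = 0.00865). Fermt3, the kindlin of blood cells, rose by 0.65 ± 0.09 (adjusted p = 0.00211). It read 7.96, 7.86 and 8.01 at the LE, 7.37, 7.22 and 7.30 in the hub and 7.03, 7.24 and 7.36 in control skin, all inside the background range. On the same LE arrays the myeloid genes Lyz2 and Tyrobp read 8.25, 5.36 and 7.12 and 7.32, 5.60 and 7.30. Both were lowest on LE replicate 2, where Fermt3 read 7.86, also its lowest LE value. Of the 6 myeloid markers, 0 were called between LE and hub. Ptprc, Fcer1g and Csf1r also had their highest group mean at the LE, with Csf1r at 6.97 there and 6.91 in control skin. Itgam had its lowest at the LE (mean 5.67, with 5.93 for hub arrays and 5.84 for control arrays). The part of these markers in the rise of Fermt3 was not tested. Falls at the LE were seen in Limd1 (-0.43 ± 0.09, adjusted p = 0.0118), a LIM protein of adhesions and cell junctions, and in Asap1 (-0.31 ± 0.07, adjusted p = 0.0272), an Arf regulator at adhesions. The call of Asap1 was lost without LE replicate 1 or 3 or any hub array (adjusted p up to 0.0908), with a mean-variance trend (adjusted p = 0.0693) and with the replicate block (adjusted p = 0.0592). All arrays of Asap1 lay inside the background range.

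**Figure D4:**
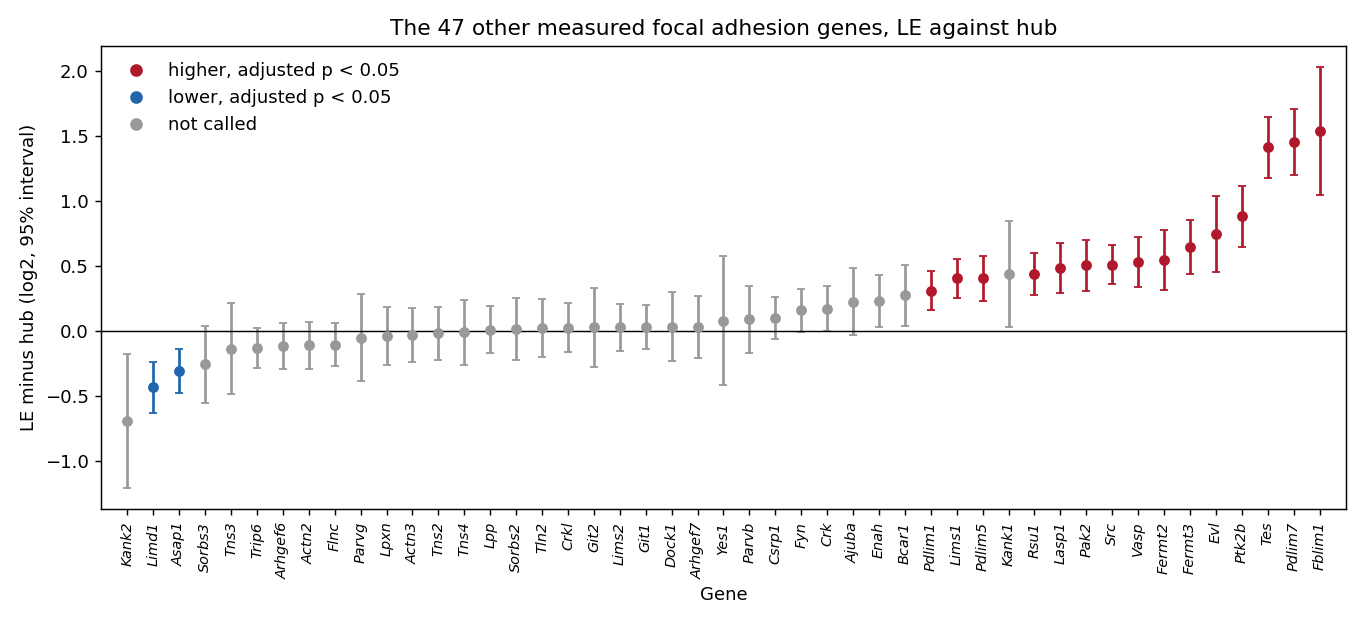
Log2 difference between LE and hub (y axis, 95% confidence intervals from limma, not adjusted over genes) for the 47 other measured focal adhesion genes, ordered by their value. Red marks the 15 genes called higher and blue the 2 called lower, with Fblim1 highest at 1.54 and Kank2 lowest at -0.70, not called.

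The integrins that these scaffolds serve gave 7 rises and 1 fall among 10 measured subunit genes at the LE against hub, where 5.39% of all genes were called higher and 5.23% lower, and Itga5 and Itga6, on which cells were sorted, are among the rises. The fall was in Itgb5 (-0.69 ± 0.07, limma adjusted p = 4.56e-04), a subunit that pairs with αv.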

How the data were processed

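Gene expression was measured on 9 Affymetrix mouse PM strip arrays in 3 groups of 3, grouped by their labels. The authors normalised the arrays with RMA (version not given in the sources used here). The deposited values are therefore log2 signals brought close to 1 distribution by construction. RMA hides a change of total RNA and compresses differences of dim genes. Arrays have no depth, and their number limits the precision. Of 45141 probe sets, 28898 had 1 gene symbol in the platform annotation, 551 had several and 15588 had none. Symbols were looked up in RefSeq (GRCm38.p6), where 28689 probe sets matched by gene identifier.

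All 9 arrays entered 1 limma model of group means (limma 3.58.1, R 4.3.3, lmFit and eBayes), tested two-sided and adjusted by Benjamini-Hochberg over 17097 genes, with calls at 0.05. No filter on dim genes was used. A second fit over all 28898 probe sets gave the values of further probe sets. The model was tested on simulated data. Median signals per array lay between 6.47 and 6.53, arrays correlated at 0.988 to 0.995 within groups and 0.964 to 0.986 between them, and 0 pairs were identical.

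The genes named are the scaffold genes with every probe set, a list of their paralogs and PINCH genes, and up to 6 called rises and 6 called falls of the further adhesion genes in LE against hub, with sort and marker genes as checks. Rsu1, Kank2, Itgb5, Actn2, Actn3, Parvg, Lasp1, Pdlim1, Pdlim5, Ajuba, Csrp1 and Dcn fall outside that rule and were named after their values were seen. Members and lists were chosen with earlier results of these data known. The methods give a rule of more than 2-fold in each replicate and no test, so that rule was counted too, read as each same-numbered pair. Further fits left out each array in turn, kept only the 6 arrays compared, dropped dim genes, tested every probe set, averaged the probe sets of a gene, centred arrays on their medians, normalised by quantiles once more, weighted the arrays, let the variance follow the mean, or added the replicate number as a block. Other genes of the lists with no single-symbol probe set were not analysed here.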

Additional observations from a re-analysis of the deposited data

How the results depend on the processing

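Of 486 values of the scaffold genes under the alternatives, 475 kept their direction and their side of the threshold, and the calls of LE against hub and LE against control held in all of the limma fits run. Leaving out 1 array gave 8 genes called in each of these comparisons (lowest and highest alike), and 2 to 3 between hub and control. For the further adhesion genes the range was 15 to 18 (LE against hub), 19 to 21 (LE against control) and 6 to 8 (hub against control). The size rule (past 2-fold between every same-numbered pair), stricter by construction, passed 1 scaffold gene in LE against hub, 2 in LE against control and 1 in hub against control, and 3, 4 and 0 of the further adhesion genes in the same order. That rule passed 1.04%, 3.01% and 0.521% of all genes. Direction reversed for values that were not called: Ilk in LE against control without LE replicate 3 (0.011) or control replicate 1 (0.037, with a range of -0.12 to 0.037 over arrays left out), Ilk in LE against hub without hub replicate 1 (-0.025, range -0.025 to 0.149), Tns3 in LE against hub without hub replicate 1 (0.035, range -0.306 to 0.035), Fermt3 in hub against control without control replicate 1 (-0.0076, range -0.0076 to 0.158) and Lims1 in hub against control with the mean of its probe sets (0.081). The cause was not tested. Same-numbered arrays did not deviate together (correlation of deviations -0.18 to 0.08, and 0 of 9 pairs over 0.1), so the numbers were not taken as pairs. With the replicate block the scaffold genes gave 8, 8 and 3 calls and the further adhesion genes 16, 19 and 7 in the order of comparisons above, and Asap1 lost its call for LE against hub. Signals inside the background range limit the folds of Tns1, Fblim1, Pdlim7, Tes, Ptk2b, Evl, Fermt2, Fermt3 and Asap1, among others.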
